A study of Mus musculus with 20 samples.

Results

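The mitosis genes described here are 38 genes that act in the G2 and M phases of the cell cycle, out of 20960 genes in a table of RNA-seq counts from mouse ovary. They were taken by symbol, all 38 are in the table, and all 38 passed the filter on low counts. The table covers 20 libraries in 4 groups of 5. The ptLNPIFN-Y group is labelled ovarian cancer treated with ptLNPIFN-Y, the LNPIFN-Y group ovarian cancer treated with LNPIFN-Y, the Model group ovarian cancer alone, and the Control group carries no treatment label. Per the series text, the tumours are orthotopic and grow from ID8Luci cells, a luciferase-marked mouse ovarian surface epithelium line, placed in the ovarian bursa of C57BL/6 mice whose bursa had first been enlarged with ptLNPFSHα&β particles. The same text describes lipid nanoparticles that carry IFN-γ mRNA, with a targeting peptide where the name begins with pt. Arms that add anti-PD-1 or cisplatin appear in that text but not in the labels, and the labels name no particle without IFN-γ mRNA. The arms of that text were left 60 days for tumours to grow, injected intraperitoneally from day 62 to day 95 after bursa expansion and ended at day 97 at the latest. It describes single-cell sequencing, whereas the labels here give oligo(dT)-selected RNA of ovary tissue sequenced on DNBSEQ, and it does not name the LNPIFN-Y arm. The labels do not say whether Control ovaries had an enlarged bursa, nor whether the 5 libraries of a group are separate animals, so the p-values measure the spread between these samples. All libraries carry the same batch value.

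Cells that leave G2 switch on a common set of genes whose products condense chromosomes, build the spindle, hold anaphase back until every kinetochore is attached, and divide the cytoplasm. Many of these genes are held silent in resting cells by the DREAM complex and are activated in cycling cells by B-Myb and FoxM1, through a promoter element called the cell cycle genes homology region (CHR) and nearby CCAAT boxes bound by NF-Y. In the ovary the granulosa cells of growing follicles are known for rapid division, while tumour cells and activated lymphocytes can add to the same transcripts in bulk tissue. In bulk libraries, fewer dividing cells and less of these RNAs per cell cannot be told apart.

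The promoters of the 38 genes were examined because the genes varied together across libraries, as described further on. RefSeq promoter windows of GRCm38.p6, from 250 bases before to 50 bases after the transcription start, were matched by Entrez ID for 32 of the 38 genes. They gave 34 windows, since Ect2 and Prc1 have 2 starts each with overlapping windows, and Ccna2, Aurkb, Kif20a, Tpx2, Dlgap5 and Smc4 had no entry. The CHR core TTTGAA, or TTCAAA on the other strand, was found in 27 of 34 windows (79.4%), against 17.9% of all 32851 mouse promoter windows of the same length. The CCAAT box, or ATTGG on the other strand, was also found in 27 of 34 (79.4%), against 37.4% of all windows. Both motifs occurred together in 23 of 34 windows (67.6%), against 6.95% of all. The motifs can share end bases, but 0 pairs of matches in these 34 windows did. The 7 windows with both motifs in the 100 bases before the start are shown, each written 5′ to 3′ in the direction of transcription, with both motifs in capitals:
Cdc20: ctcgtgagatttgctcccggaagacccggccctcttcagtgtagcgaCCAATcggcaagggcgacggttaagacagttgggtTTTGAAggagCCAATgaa
Cdk1: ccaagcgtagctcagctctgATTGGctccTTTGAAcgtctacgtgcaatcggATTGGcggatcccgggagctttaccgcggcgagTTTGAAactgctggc
Ckap2l: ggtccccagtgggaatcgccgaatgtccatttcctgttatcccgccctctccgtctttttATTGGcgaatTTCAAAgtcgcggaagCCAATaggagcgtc
Kif11: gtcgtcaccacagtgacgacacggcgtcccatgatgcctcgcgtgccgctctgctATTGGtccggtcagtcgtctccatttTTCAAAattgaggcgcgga
Prc1: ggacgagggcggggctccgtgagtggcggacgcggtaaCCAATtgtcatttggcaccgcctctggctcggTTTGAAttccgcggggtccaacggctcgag
Top2a: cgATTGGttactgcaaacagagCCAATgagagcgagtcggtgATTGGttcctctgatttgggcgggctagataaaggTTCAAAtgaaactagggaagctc
Ube2c: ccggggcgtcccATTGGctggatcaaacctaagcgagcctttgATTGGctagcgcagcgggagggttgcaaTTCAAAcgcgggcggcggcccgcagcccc

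These stretches lie at chr4:118437344-118437443 on the minus strand for Cdc20, chr10:69352913-69353012 on the minus strand for Cdk1, chr2:129297213-129297312 on the minus strand for Ckap2l and chr19:37376282-37376381 on the plus strand for Kif11. The others lie at chr7:80294376-80294475 on the plus strand for Prc1, chr11:99024190-99024289 on the minus strand for Top2a and chr2:164769829-164769928 on the plus strand for Ube2c. In all 7 stretches a CCAAT box stands upstream of the TTTGAA core, and Cdc20 and Ckap2l have a further box downstream of it. Cdk1 has 2 cores, with a box before each, so that the later box lies between the cores. The 61 CCAAT matches over all windows had a median position 71 bases before the start, and 39 of them lay within the 100 bases before it. The 36 TTTGAA matches lay nearer the start, with a median of 3 bases after it, and 19 of them began in the 50 bases after it. Matches were counted per window, so sites in the overlapping windows of Ect2 and Prc1 enter these counts once for each start. The windows of Anln, Kif20b, Kif2c and Ndc80 held the CHR core alone, and those of Bub1, Ccnb1, Cenpe and Sgo1 held CCAAT alone. A match describes letters in a window and is no measurement of binding.

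**Figure D1:**
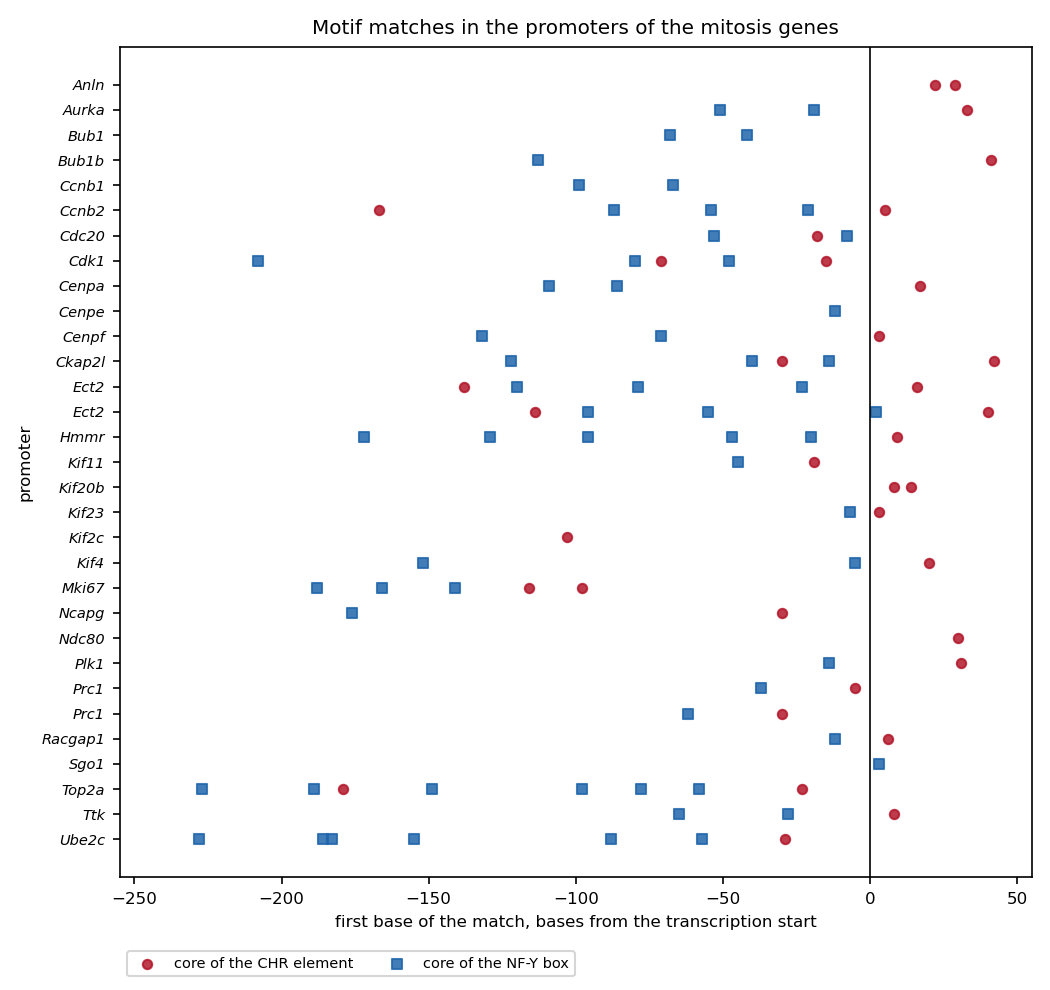
Position of each motif match in the promoter windows of the mitosis genes. The horizontal axis gives the first base of a match in bases from the transcription start, circles mark the CHR core and squares the NF-Y box, and only windows with a match are drawn; squares cluster before the start and 19 of 36 circles lie after it.

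Counts per library were alike, from 16496792 to 17218033, but the content of ovarian cells was not. The granulosa marker list (20 of 20 genes in the table) summed to 1610 to 6790 CPM (read counts relative to library size, scaled by TMM) in ptLNPIFN-Y, 1580 to 4850 in LNPIFN-Y, 3540 to 6560 in Model and 4770 to 7320 in Control. The oocyte list (22 of 22) summed to 50.7 to 564 CPM in ptLNPIFN-Y, 37.6 to 487 in LNPIFN-Y, 204 to 651 in Model and 254 to 682 in Control. The libraries ptLNPIFN-Y 5 and LNPIFN-Y 5 had the lowest sums of both lists, low for libraries labelled ovary. Neither had a count of the egg-coat gene Zp3, nor of Zp1 and Zp2. Of the 22 oocyte markers, 9 and 12 stood at 0. Of the 20 granulosa genes only Fshr and Cyp19a1 stood at 0 in both, and that list still summed to 1610 and 1580 CPM. LNPIFN-Y 1 lacked only Cyp19a1 of these 2 lists. The 2 libraries without Zp3 differed from each other in other marker lists. Adipocyte markers summed to 21900 CPM in ptLNPIFN-Y 5 and 2000 in LNPIFN-Y 5. Mesothelial and surface epithelium markers summed to 809 and 3160 CPM, and macrophage markers to 2630 and 3540 CPM, in the same order. T cell markers (14 of 16 in the table) summed to 93.7 to 245 CPM in ptLNPIFN-Y, 76.3 to 165 in LNPIFN-Y, 33.9 to 57.6 in Model and 25.8 to 35.7 in Control. The medians of the 38 genes and the number of pathway calls are given below with and without the 2 libraries that lack Zp3, and values per library, role medians and partner ratios with them.

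The mitosis genes were high or low together from library to library, and LNPIFN-Y, Model and Control each held both high and low libraries. Each library was described by how many of the 38 genes lay above their own median over the 20 libraries. The count was 9, 16, 20, 22 and 0 in ptLNPIFN-Y 1 to 5, 3, 27, 28, 38 and 38 in LNPIFN-Y, 38, 6, 37, 8 and 0 in Model, and 38, 1, 2, 35 and 14 in Control. Model and Control thus each held libraries with nearly all 38 genes high and libraries with nearly all low. LNPIFN-Y 5 had the highest value of 28 of the 38 genes and ptLNPIFN-Y 5 the lowest of 26, and both are the libraries without Zp3. The 38 genes summed to 849 CPM in ptLNPIFN-Y 5 and 2340 CPM in LNPIFN-Y 5, with the other 18 libraries between them. As a mean of centred log2 CPM, single libraries ran from -0.68 in ptLNPIFN-Y 5 to 0.82 in LNPIFN-Y 5, and the set stood at -0.17 ± 0.29 in ptLNPIFN-Y, 0.14 ± 0.45 in LNPIFN-Y, 0.05 ± 0.35 in Model and -0.02 ± 0.34 in Control (SD, n = 5 each).

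**Figure D2:**
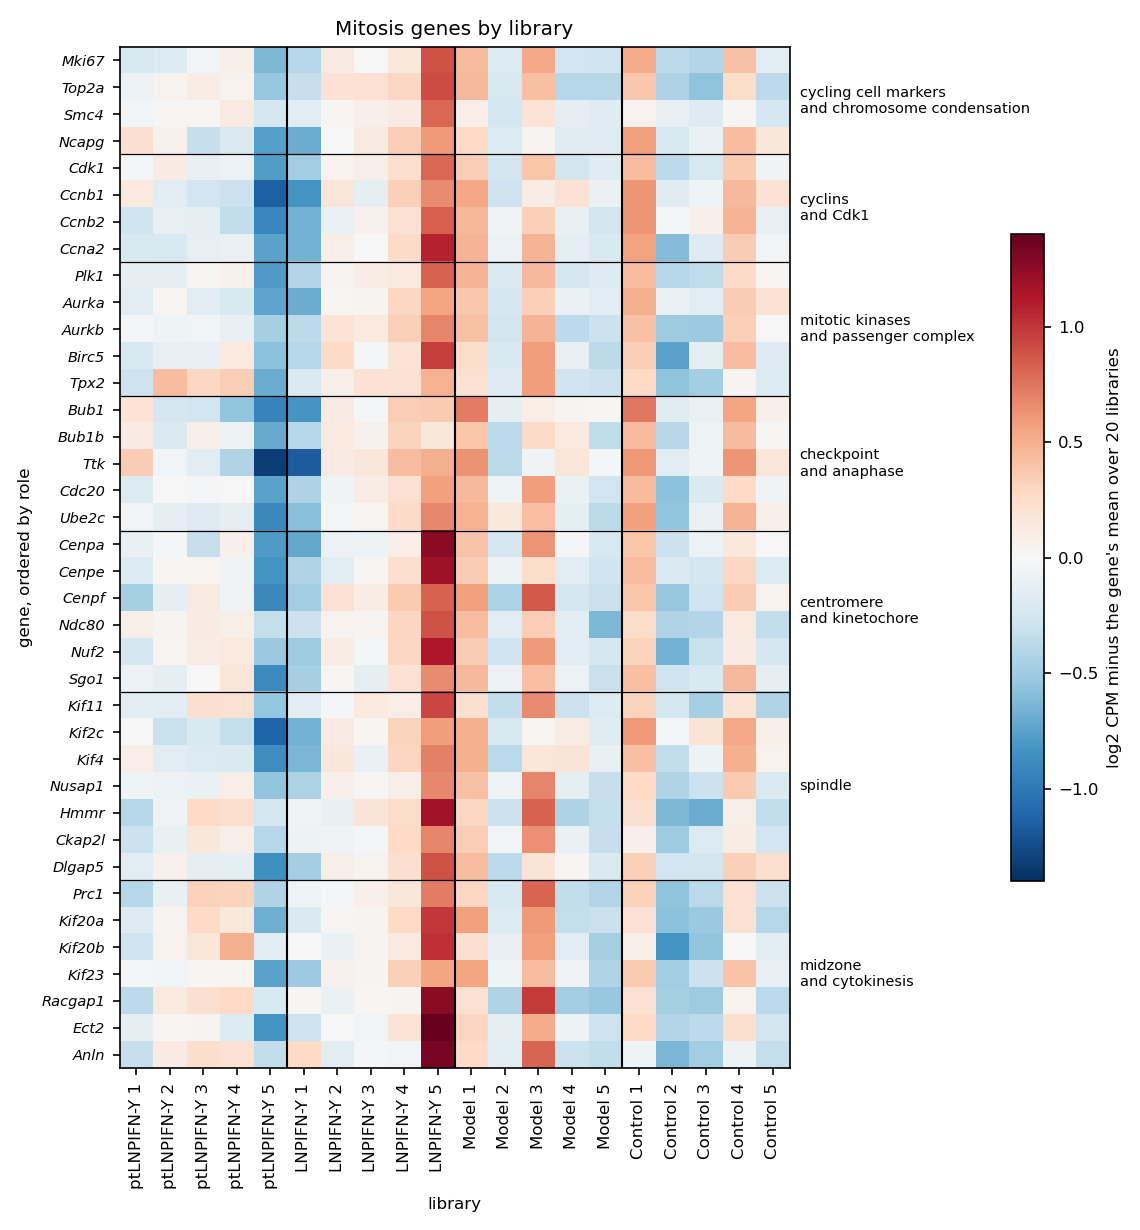
Colour gives log2 CPM of each of the 38 genes (rows, by role) minus its mean over the 20 libraries (columns, by group). Columns, not groups, carry the colour: LNPIFN-Y 4 and 5, Model 1 and 3, and Control 1 and 4 are red over nearly all rows and ptLNPIFN-Y 5 is blue over all rows.

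Across the 20 libraries, the Spearman correlation of each gene with the mean of the other 37 lay between 0.65 for Anln and 0.98 for Kif23, with a median of 0.87. These points share groups, scaling and the differences in tissue content, and the correlation is given as a description. Group membership accounted for a median of 15.1% of a gene's log2 variance, from 8.07% for Kif23 to 35.3% for Kif2c. Over all tested genes the median was 26.3%, and 15.8% is due with 4 groups of 5 when groups have no effect. The SD of log2 CPM over the libraries ran from 0.23 for Smc4 to 0.52 for Ttk, with a median of 0.39, which is also the median over all tested genes. Per kilobase of the gene length deposited with the counts, the level was highest for Ube2c at 29.5 CPM per kb. Top2a at 22.8, Ccna2 at 18.4 and Ccnb2 at 16.7 followed, and Kif4 was lowest at 1.86.

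The values of the leading genes follow by role, in CPM with replicates 1 to 5 of each group in order. Mki67, the Ki-67 coat of mitotic chromosomes and a standard marker of cycling cells, lies on chromosome 7 from 135689784 to 135716450 of GRCm38.p6. Mki67 had 89.7, 91.3, 102, 111 and 67.4 CPM in ptLNPIFN-Y, 79.5, 114, 105, 116 and 194 in LNPIFN-Y, 142, 91.8, 151, 86.8 and 85.9 in Model, and 150, 80.2, 78.5, 139 and 93.4 in Control. Top2a had 109, 119, 124, 119 and 79.3 CPM in ptLNPIFN-Y, 91.6, 132, 133, 141 and 217 in LNPIFN-Y, 157, 98.6, 154, 87.2 and 86.9 in Model, and 149, 85, 78.1, 137 and 89 in Control. Top2a untangles sister chromatids. Both genes were high in LNPIFN-Y 5, Model 1, Model 3, Control 1 and Control 4 and low in ptLNPIFN-Y 5, and every group overlapped every other. Smc4 had 117, 121, 121, 131 and 102 CPM in ptLNPIFN-Y, 108, 121, 126, 130 and 210 in LNPIFN-Y, 128, 101, 137, 109 and 107 in Model, and 124, 111, 106, 121 and 101 in Control. Smc4 is the ATPase core of condensin and had the smallest spread of the 38 genes, and its LNPIFN-Y 5 value stood far above the other 19. Ncapg, another condensin subunit, ranged from 10.9 CPM in ptLNPIFN-Y 5 to 28.1 CPM in LNPIFN-Y 5.

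Cdk1 is the kinase that drives entry into mitosis, and cyclins A2, B1 and B2 are its partners. Cdk1 had 37.9, 41.7, 35.8, 36.4 and 22.4 CPM in ptLNPIFN-Y, 27.6, 40.1, 40.9, 45.3 and 67.3 in LNPIFN-Y, 49.1, 32.3, 50.7, 32.3 and 34.4 in Model, and 52.3, 29.9, 33.1, 49.9 and 37.2 in Control. Ccna2 had 51.2, 51.1, 54.7, 55.7 and 35.4 CPM in ptLNPIFN-Y, 37.5, 62.6, 59.4, 71.4 and 125 in LNPIFN-Y, 82.6, 56, 82.7, 54.3 and 51.3 in Model, and 87.4, 39.1, 52.4, 75.8 and 57.7 in Control. Both genes had their lowest value in ptLNPIFN-Y 5 and their highest in LNPIFN-Y 5, and all groups overlapped. Ccnb1 had 33.6, 27.7, 25.5, 24.8 and 13.9 CPM in ptLNPIFN-Y, 17.1, 34.5, 28.1, 38.7 and 48.3 in LNPIFN-Y, 44.6, 25, 33, 35.2 and 28.7 in Model, and 46.9, 27.3, 29.3, 42 and 35.1 in Control. Ccnb2 had 20.4, 22.8, 22.5, 19.5 and 13.1 CPM in ptLNPIFN-Y, 15.6, 23.2, 25.8, 28.7 and 44 in LNPIFN-Y, 34.1, 23.8, 31.2, 23 and 20.6 in Model, and 38, 24.4, 26, 34.3 and 22.8 in Control. For Ccnb2 (chromosome 9, 70407689 to 70421554) the 5 ptLNPIFN-Y libraries all lay below the 5 Control libraries, with ptLNPIFN-Y 2 and Control 5 equal to the digits shown. It was the only one of the 38 genes whose groups did not overlap in any of the 6 comparisons.

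Among the mitotic kinases, Plk1 acts in centrosome maturation and mitotic exit, Aurora A (Aurka) at spindle poles with its activator Tpx2, and Aurora B (Aurkb) in the chromosomal passenger complex with survivin (Birc5). Plk1 had 19.9, 20.1, 22.2, 22.9 and 12.6 CPM in ptLNPIFN-Y, 16.5, 22.5, 23.5, 24.1 and 38.8 in LNPIFN-Y, 30.4, 19.1, 30, 18.6 and 19.3 in Model, and 29.6, 16.6, 17.1, 26.3 and 22.3 in Control. Aurka had 14.5, 16.6, 14.5, 14 and 9.72 CPM in ptLNPIFN-Y, 10, 16.6, 16.7, 19.8 and 23.9 in LNPIFN-Y, 21.1, 13.8, 20.5, 15.2 and 14.5 in Model, and 22.9, 15.2, 14.7, 20.8 and 18.7 in Control. Tpx2 had 35.5, 58.5, 52.9, 55.2 and 26.9 CPM in ptLNPIFN-Y, 37.7, 45.9, 50.1, 50.5 and 61 in LNPIFN-Y, 50.3, 38.3, 65.3, 35.8 and 35.2 in Model, and 52.7, 29.3, 31.2, 44.5 and 38 in Control. In Aurka the 5 ptLNPIFN-Y values were no higher than 16.6 CPM, and in Tpx2 3 of the 5 values, 52.9 CPM or more, lay above all 5 Control values. Aurkb had 18.8, 18.3, 18.5, 17.7 and 13.8 CPM in ptLNPIFN-Y, 14.8, 21.8, 20.9, 24 and 30.6 in LNPIFN-Y, 25.2, 15.9, 26.4, 14.8 and 15.5 in Model, and 25.2, 13.5, 13.4, 24 and 19.1 in Control. Birc5 had 20.2, 21.8, 21.8, 25.9 and 15.8 CPM in ptLNPIFN-Y, 17.8, 28.3, 23.2, 26.8 and 46 in LNPIFN-Y, 28, 20.3, 35.3, 21.8 and 18.3 in Model, and 29.9, 14, 21.6, 31.7 and 20.8 in Control. Both passenger complex genes were lowest or near lowest in Control 2 and highest in LNPIFN-Y 5, with overlap of all groups.

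The spindle checkpoint genes Bub1, Bub1b and Ttk delay anaphase while kinetochores are unattached. Bub1 had 23.4, 17.4, 16.9, 13.9 and 10.7 CPM in ptLNPIFN-Y, 11.5, 22.2, 20, 26 and 26.4 in LNPIFN-Y, 33.5, 18.7, 21.8, 21 and 20.6 in Model, and 34.1, 18.1, 19.1, 29.9 and 21.4 in Control. Bub1b had 45.7, 36.8, 44.8, 40.2 and 25.9 CPM in ptLNPIFN-Y, 32, 46.7, 44.3, 52.7 and 47.4 in LNPIFN-Y, 55.5, 32.7, 51.1, 46.5 and 33 in Model, and 57.6, 32.3, 40.7, 57.6 and 43 in Control. Ttk had 13.2, 10.1, 9.34, 7.71 and 4.15 CPM in ptLNPIFN-Y, 4.6, 11.2, 11.5, 13.9 and 14.7 in LNPIFN-Y, 16, 7.96, 9.96, 11.6 and 10.2 in Model, and 15.7, 9.35, 9.89, 15.9 and 11.6 in Control. Bub1 was highest in Control 1, Ttk had the widest spread of the 38 genes, and both were low in ptLNPIFN-Y 5 and LNPIFN-Y 1. Cdc20 activates the anaphase-promoting complex (APC/C) and Ube2c is its ubiquitin-conjugating enzyme. Cdc20 had 23.2, 26.5, 26.2, 26.6 and 15.7 CPM in ptLNPIFN-Y, 19.6, 25.6, 28.3, 30.5 and 39.3 in LNPIFN-Y, 36.3, 25.4, 39.6, 24.7 and 22 in Model, and 35.9, 17.8, 22.9, 32 and 25.5 in Control. Ube2c had 25.8, 24, 23.4, 24.3 and 14.2 CPM in ptLNPIFN-Y, 17.6, 26.1, 26.9, 31.9 and 42.1 in LNPIFN-Y, 37.1, 29.2, 35.3, 24.3 and 20.4 in Model, and 39.3, 18, 24.8, 36.7 and 27.9 in Control. In both, ptLNPIFN-Y 5 was lowest, and all groups overlapped.

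Cenpa is the histone H3 variant that marks centromeres, Cenpe a kinetochore motor, and Ndc80 the microtubule-binding subunit of the outer kinetochore. Cenpa had 18.3, 19.5, 15.8, 20.7 and 11.4 CPM in ptLNPIFN-Y, 12, 18.6, 18.7, 21 and 47.3 in LNPIFN-Y, 26, 16.7, 30.3, 19.3 and 16.9 in Model, and 25.7, 16, 18.6, 21.9 and 19.6 in Control. Cenpe had 21.5, 24.8, 25, 23.8 and 13.8 CPM in ptLNPIFN-Y, 18.3, 22.2, 24.9, 28.9 and 55.9 in LNPIFN-Y, 31.4, 23.4, 29.3, 22.2 and 20.2 in Model, and 33.1, 21.4, 20.7, 30 and 21.5 in Control. Ndc80 had 13.1, 12.7, 13.4, 13.1 and 9.85 CPM in ptLNPIFN-Y, 10.1, 12.8, 12.7, 15.3 and 23 in LNPIFN-Y, 16.8, 11.2, 15.7, 11.1 and 8.03 in Model, and 14.8, 9.29, 9.34, 13.6 and 9.76 in Control. In all 3 genes LNPIFN-Y 5 was far above the other libraries, at 47.3, 55.9 and 23 CPM. Of the other kinetochore genes, Cenpf ranged from 17.4 to 58.8 CPM, Nuf2, the partner of Ndc80, from 11.1 to 38.4 CPM, and Sgo1, the protector of centromeric cohesin, from 6.37 to 18.8 CPM.

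The kinesin Kif11 pushes spindle poles apart, and Kif2c removes tubulin from microtubule ends at centromeres to correct wrong attachments. Kif11 had 40.3, 40.1, 51.8, 51.5 and 30.5 CPM in ptLNPIFN-Y, 39.8, 43.8, 48.9, 47.6 and 85.1 in LNPIFN-Y, 51.8, 35.1, 70.4, 36.2 and 39.1 in Model, and 55.2, 37.5, 32.3, 50.8 and 33.3 in Control. Kif2c had 18.1, 14.7, 15.7, 14.4 and 8.38 CPM in ptLNPIFN-Y, 11.5, 19.7, 18.5, 22.5 and 27.2 in LNPIFN-Y, 25.7, 15.6, 18.5, 19.5 and 16.2 in Model, and 27.5, 17.8, 20.7, 26.2 and 19.3 in Control. Kif2c (chromosome 4, 117159633 to 117182624) had 4 of its 5 ptLNPIFN-Y values below all Control values, and ptLNPIFN-Y 1 at 18.1 CPM stood just above Control 2 at 17.8 CPM. Ckap2l had 19.4, 22.2, 26.7, 25.4 and 18.1 CPM in ptLNPIFN-Y, 22.8, 23.1, 23.6, 29.1 and 38.6 in LNPIFN-Y, 30.4, 23.4, 37.2, 22.4 and 19.1 in Model, and 25.2, 16.9, 21, 25.8 and 19.9 in Control. Ckap2l, a spindle protein, had the second smallest spread. The chromokinesin Kif4 ranged from 9.52 to 28.5 CPM, the microtubule bundlers Nusap1 and Dlgap5 from 19.5 to 46.2 and from 7.37 to 24.8 CPM, and the spindle assembly factor Hmmr from 11.5 to 42 CPM.

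Genes of the spindle midzone and of cytokinesis build the cleavage furrow. Anln had 31.7, 42.7, 47, 45.7 and 31.1 CPM in ptLNPIFN-Y, 48, 35.4, 39.2, 38.4 and 99.5 in LNPIFN-Y, 47.9, 35.4, 69.3, 32 and 31.2 in Model, and 37.8, 25.3, 28.3, 37.6 and 31.3 in Control. Kif20b had 16.4, 20.6, 22.3, 28.1 and 17.8 CPM in ptLNPIFN-Y, 20, 18.6, 20.5, 21.8 and 40.5 in LNPIFN-Y, 23.5, 18.4, 29.6, 18 and 14.4 in Model, and 21.1, 11.1, 13.6, 19.8 and 17.8 in Control. Ect2 had 25, 28, 28.3, 24.2 and 15.4 CPM in ptLNPIFN-Y, 22.6, 27.4, 26.8, 31.4 and 75.7 in LNPIFN-Y, 33.9, 25.3, 39.5, 26.2 and 22.5 in Model, and 33.5, 20.8, 21.3, 32.1 and 23 in Control. Anln scaffolds the contractile ring, Kif20b is a kinesin of the midbody, and Ect2 activates RhoA at the furrow. All 3 had their highest value in LNPIFN-Y 5, and Anln, unlike the cyclins, was not low in LNPIFN-Y 1. Racgap1 had 35.7, 50.7, 53.8, 55.7 and 39.6 CPM in ptLNPIFN-Y, 46.8, 43.1, 46.8, 47.3 and 110 in LNPIFN-Y, 53.3, 34.3, 90.5, 32.9 and 31.8 in Model, and 53.4, 33.4, 32.5, 47.5 and 35.4 in Control. Racgap1 and Kif23 form centralspindlin, and Kif23 ranged from 15.9 CPM in ptLNPIFN-Y 5 to 39 CPM in LNPIFN-Y 5 and Model 1. The midzone bundler Prc1 ranged from 36.3 to 94.5 CPM and the kinesin Kif20a, which carries Aurora B to the midzone, from 15.4 to 48.9 CPM.

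**Figure D3:**
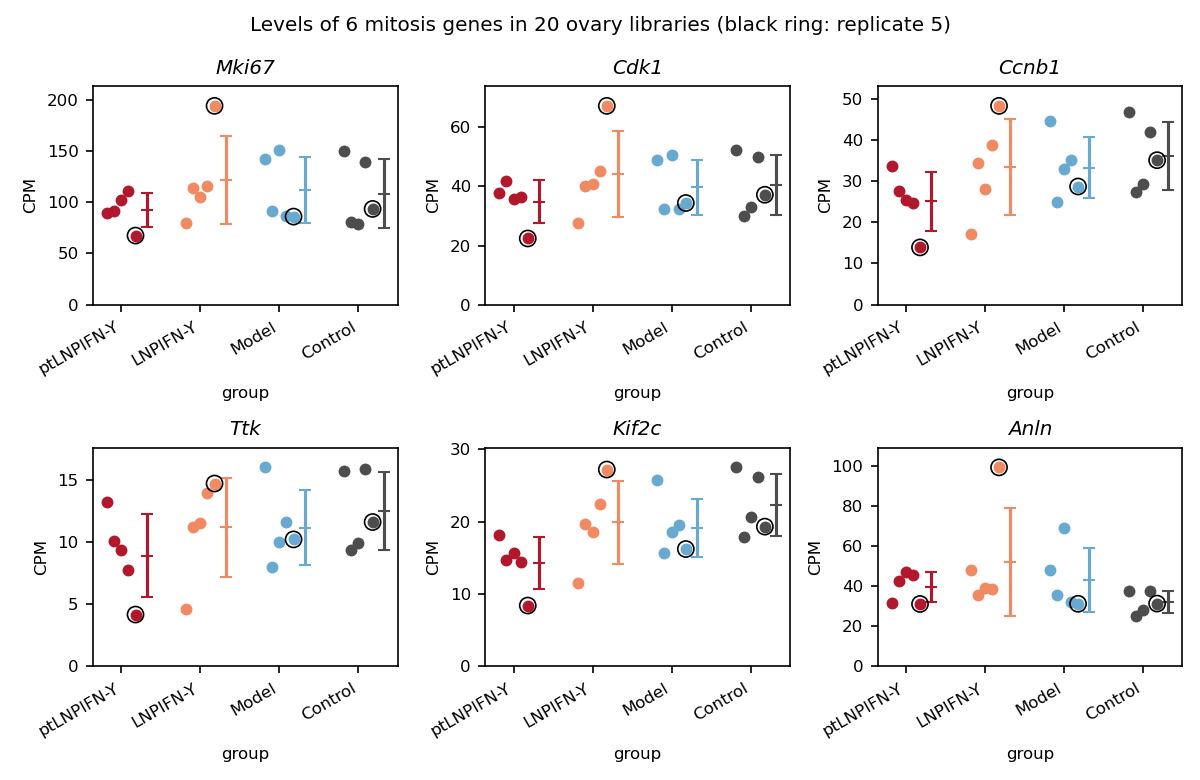
CPM of Mki67, Cdk1, Ccnb1, Ttk, Kif2c and Anln in each library (points, replicates 1 to 5 from left to right) by group, with the mean and SD of 5 libraries beside the points and a black ring around replicate 5. In each panel the groups overlap, LNPIFN-Y 5 lies high and ptLNPIFN-Y 5 low.

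None of the 38 genes passed the test in any of 6 comparisons (edgeR quasi-likelihood test, all 20 libraries in 1 model, Benjamini-Hochberg adjusted over 15723 genes, adjusted p under 0.05). Fold changes are log2 with their SE, n = 5 per group, and the comparisons share the Model or the Control libraries. For ptLNPIFN-Y over Model, 0 of 38 genes passed, where 7% of all tested genes did, and 0 had groups without overlap, where 6.07% of all genes did. Here 35 of 38 fold changes lay below 0, with a median of -0.25 against -0.05 over all tested genes. Bub1 had -0.49 ± 0.25 (adjusted p = 0.259) and Kif2c -0.42 ± 0.22 (adjusted p = 0.272), the smallest p-values of the 38. Mki67 was at -0.27 ± 0.25 (adjusted p = 0.507). No gene had an unadjusted p under 0.05, and the 95% confidence interval excluded a 2-fold change in either direction for 36 of 38 genes. Without ptLNPIFN-Y 5 and LNPIFN-Y 5 the median was -0.13.

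For LNPIFN-Y over Model, 0 of 38 genes passed, where 5.81% of all genes did, and 0 had groups without overlap, where 5.22% did. Fold changes were above 0 for 33 of 38, with a median of 0.12 against -0.03 over all genes. Smc4 had 0.26 ± 0.14 (adjusted p = 0.357) and Top2a 0.29 ± 0.24 (adjusted p = 0.539). All 38 intervals excluded a 2-fold change. Without LNPIFN-Y 5 the median turned to -0.10, and 31 of 38 fold changes were then below 0. Without both libraries lacking Zp3 it was -0.07. T cell markers moved with this comparison and with that of ptLNPIFN-Y: 13 of 14 were past the test and higher in each, and 10 of 10 NK and cytotoxic markers. Their part in the mitosis gene values was not tested.

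For ptLNPIFN-Y over LNPIFN-Y, all 38 fold changes lay below 0, with a median of -0.36 against -0.01 over all genes. None passed the test, as for all genes (0%), with adjusted p = 1 for every one of the 38, and 0 had groups without overlap, where 0.191% of all genes did. Kif2c had -0.48 ± 0.22 and Ect2 -0.6 ± 0.29. The unadjusted edgeR p was under 0.05 for 1 gene, Kif2c, at 0.046. Without both libraries that lack Zp3, 27 of 38 fold changes lay below 0 and the median was -0.05. Without LNPIFN-Y 5 alone the median was -0.14, and without ptLNPIFN-Y 5 alone -0.26. The interval excluded a 2-fold change for 33 of 38 genes.

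For Model over Control, 0 of 38 genes passed, as for all genes (0%), and 0 had groups without overlap, where 0.795% of all genes did. The median fold change was 0.07 against 0.01 over all genes, with 25 of 38 above 0, and it was -0.05 without Model 3 and -0.01 without Model 1. Anln had 0.43 ± 0.28 (adjusted p = 0.936) and Ckap2l 0.28 ± 0.19 (adjusted p = 0.936). No unadjusted p was under 0.05, and the interval excluded a 2-fold change for 37 of 38 genes, all but Anln.

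**Figure D4:**
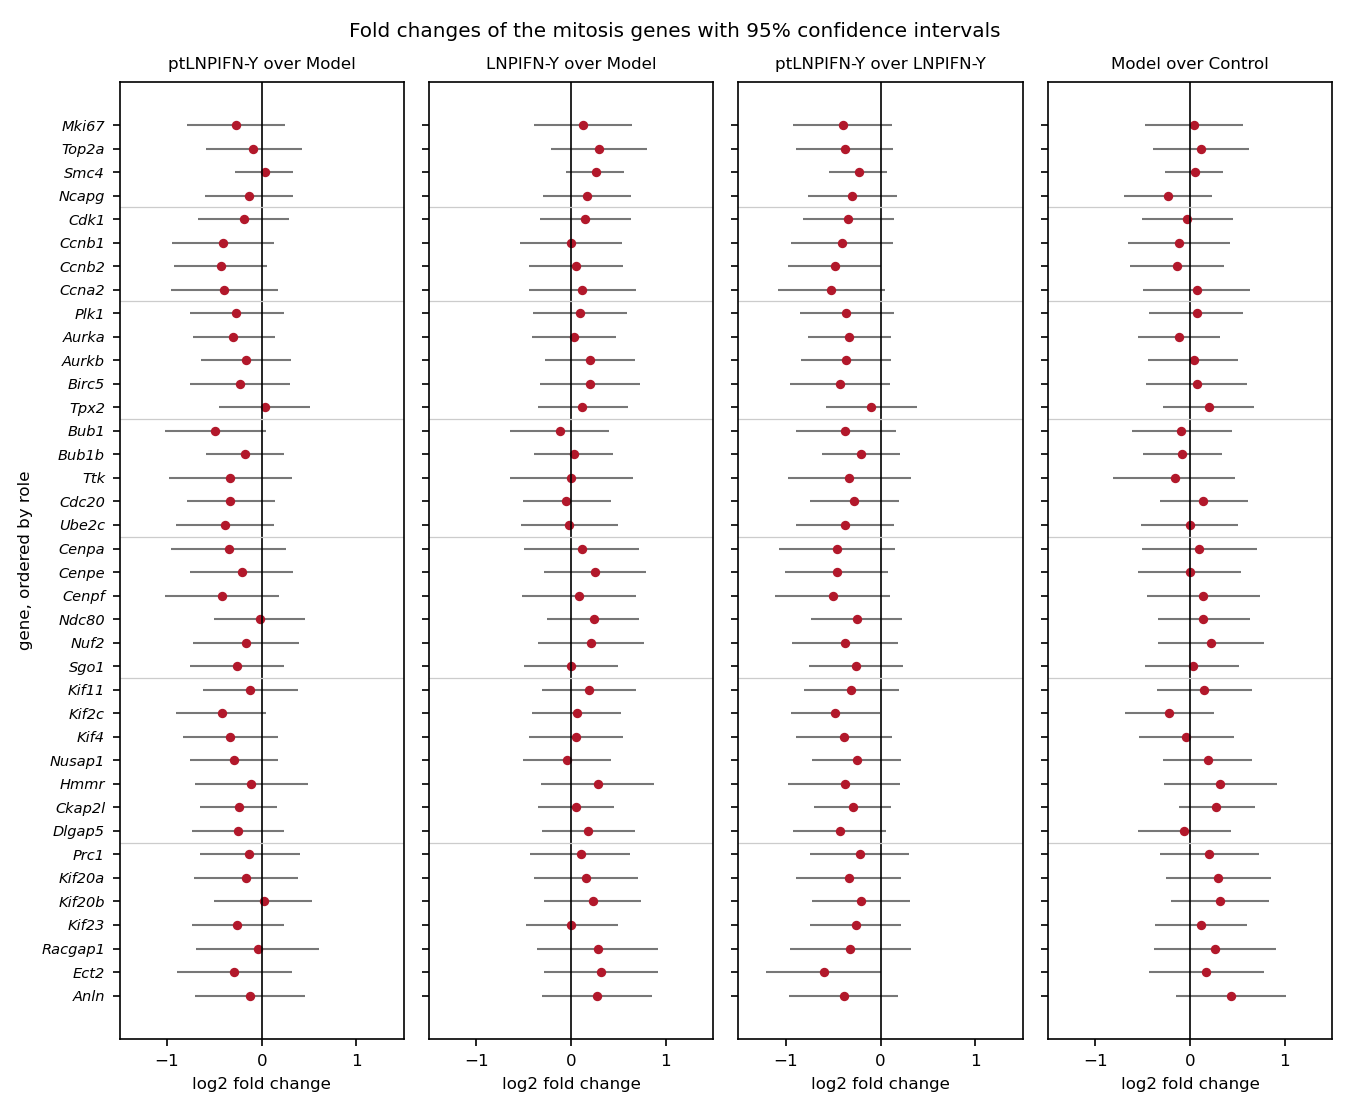
Log2 fold change (points) and 95% confidence interval (lines) of the 38 genes in 4 comparisons, genes ordered by role from top to bottom. All 38 points lie left of 0 for ptLNPIFN-Y over LNPIFN-Y and 35 of 38 for ptLNPIFN-Y over Model, and almost every interval crosses 0.

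Against Control, 0 of 38 genes passed for ptLNPIFN-Y, where 17.6% of all tested genes did, and 1 of 38 had groups without overlap, where 16.7% did. For LNPIFN-Y, 0 of 38 passed, where 14.1% of all genes did, and 0 had groups without overlap, where 19.5% did. The medians were -0.19 for ptLNPIFN-Y, with 13 of 38 above 0, and 0.20 for LNPIFN-Y, with 29 of 38 above 0, both against -0.02 over all genes. Without the 2 libraries lacking Zp3 they were -0.06 and -0.01, and without LNPIFN-Y 5 alone the LNPIFN-Y median was -0.04. Kif2c came nearest to the threshold in ptLNPIFN-Y, at -0.65 ± 0.22 (adjusted p = 0.0534), followed by Ccnb2 at -0.57 ± 0.24 (adjusted p = 0.0989) and Bub1 at -0.57 ± 0.25 (adjusted p = 0.114). DESeq2 called Kif2c with an adjusted p of 0.0218, and without Control 5 or without ptLNPIFN-Y 1 the edgeR adjusted p was 0.0499 or 0.0328. Without ptLNPIFN-Y 1, Bub1 passed as well (adjusted p = 0.048). In LNPIFN-Y the smallest p-values were those of Anln, at 0.7 ± 0.28 (adjusted p = 0.0919), and Kif20b, at 0.54 ± 0.25 (adjusted p = 0.133).

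By role, median fold changes in ptLNPIFN-Y over Control were -0.43 for Cdk1 and the cyclins, -0.39 for checkpoint and anaphase genes, -0.23 for centromere and kinetochore genes, and 0.13 for midzone and cytokinesis genes. In LNPIFN-Y over Control they were 0.02, -0.05, 0.24 and 0.49 in the same role order. In these 2 comparisons, mitotic kinase and passenger complex genes stood at -0.16 and 0.23 and spindle genes at -0.11 and 0.14. Cycling cell markers and condensation genes stood at -0.1 and 0.24. The library LNPIFN-Y 5 was included, and role medians were not rerun without it. These are descriptions of 4 to 7 genes each, without a test.

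Single genes were also compared library by library after the mean of the 38 genes in that library had been subtracted from each gene. Plk1, Cdk1, Mki67 and Cdc20 stayed closest to that mean, with an SD of the departure of 0.07, 0.08, 0.09 and 0.09 on the log2 scale. The 8 genes with the widest departures were Ttk (0.35), Anln (0.31), Bub1 and Racgap1 (0.29), Kif20b (0.27), and Ccnb1, Kif2c and Hmmr (0.26). Ttk, Bub1, Ccnb1 and Kif2c were all below the mean, and Anln, Racgap1, Kif20b and Hmmr all above it, in 6 libraries: ptLNPIFN-Y 3, 4 and 5, LNPIFN-Y 1 and 5, and Model 3. In 10 libraries, all 5 of Control among them, the order was the reverse for all 8 genes. The 8 genes were chosen after their values were seen, and no test was made. They were divided by the sign of their mean departure in Control, so their mean order in Control was fixed by that choice. Each gene was also centred over the 20 libraries. A set above 0 in Control must therefore average below 0 over the remaining libraries, and the other set the reverse, so part of the reversal was built in.

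The 6 libraries were those with the lowest granulosa markers. Their mean centred log2 CPM of the granulosa list lay between -3.49 and -0.58, and in the other 14 libraries between 0.31 and 1.30. The oocyte list lay between -4.50 and -0.14 in the 6 and between -0.35 and 1.48 in the other 14. In ptLNPIFN-Y 5 the first 4 genes averaged -0.44 and the other 4 genes 0.44, although the 38 genes as a whole were lowest there, and in LNPIFN-Y 5, where the whole set was highest, the averages were -0.30 and 0.37. The balance between the 2 sets of 4 thus ran alike in libraries at both ends of the shared level. T cell list means in the 6 libraries lay between -0.21 in Model 3 and 2.16 in ptLNPIFN-Y 4. The part of granulosa, oocyte or T cell content in the departures was not tested.

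**Figure D5:**
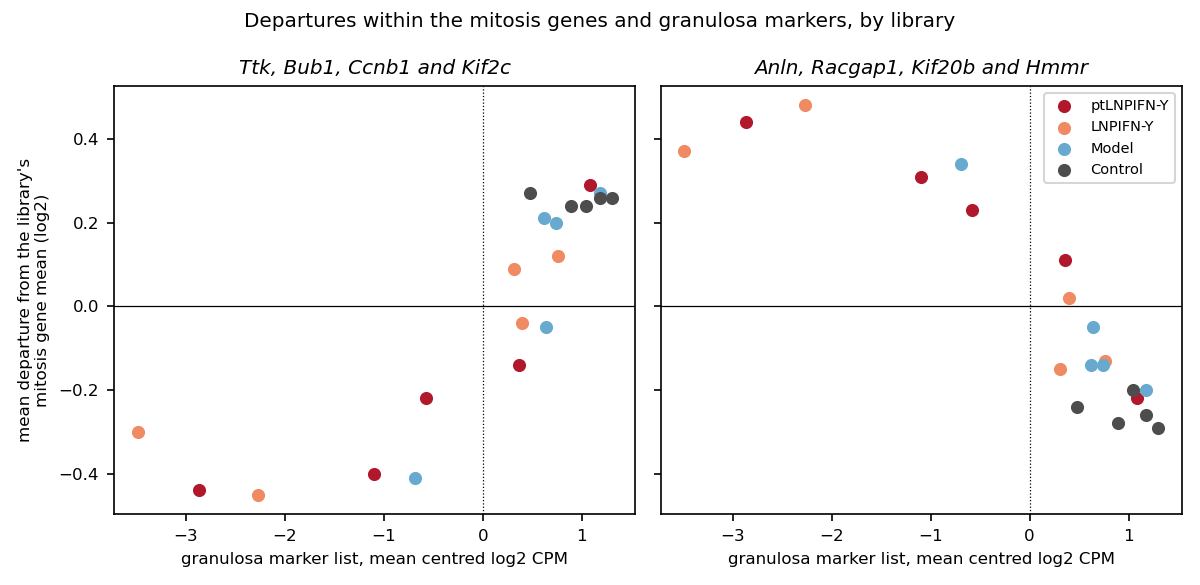
Each point is a library, coloured by group. The horizontal axis is the mean centred log2 CPM of the 20 granulosa markers and the vertical axis the mean departure of 4 genes from the library's mean over the 38 genes (log2), for Ttk, Bub1, Ccnb1 and Kif2c (left) and Anln, Racgap1, Kif20b and Hmmr (right). The 6 libraries left of 0 all lie below 0 in the left panel and above 0 in the right panel.

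Outside the 38 genes, those whose log2 CPM ranked most like the set's mean over the 20 libraries included Spag5 (Spearman 0.979), Knstrn (0.971), Incenp (0.968), Kif14 (0.964), Kifc5b (0.949), Kif18b (0.947), Ccnf (0.947), Ncapd2 (0.944) and Kntc1 (0.940). Of the 100 most alike genes, 34 are on a list of 77 other mitosis genes and 11 on the list of DNA replication genes. Foxm1 had 21.5, 32, 31.8, 34.3 and 19.1 CPM in ptLNPIFN-Y, 26.3, 28.8, 28.2, 33.1 and 63.1 in LNPIFN-Y, 35.5, 21, 48, 22.4 and 23.5 in Model, and 34.2, 16.7, 21.4, 32.6 and 24.8 in Control. Foxm1, the activator of G2/M genes, reached a Spearman value of 0.88 (rank 45 of 15685), and like the set it was highest in LNPIFN-Y 5. Mybl2 had 14.8, 12.2, 12.6, 12.5 and 5.9 CPM in ptLNPIFN-Y, 8.17, 18.7, 13.9, 16.1 and 12.5 in LNPIFN-Y, 15.7, 6.74, 11.2, 18.4 and 15.2 in Model, and 19.5, 10.1, 14.8, 19.8 and 14.2 in Control. Mybl2, which encodes B-Myb, reached 0.43. Cdkn1a had 39.7, 63.4, 47.9, 42.4 and 56.3 CPM in ptLNPIFN-Y, 64.4, 45.2, 41, 36.8 and 70.4 in LNPIFN-Y, 50.9, 39.9, 44.9, 50.2 and 34.8 in Model, and 40.8, 29, 36.4, 32.3 and 35 in Control. Cdkn1a, the p21 inhibitor of cyclin-dependent kinases, reached 0.16. In LNPIFN-Y 5, where the set was highest, Cdkn1a was highest as well and Mybl2, at 12.5 CPM, lay within the range of the other libraries. These values are descriptions over 20 libraries that share groups and tissue content.

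Other genes of the pathway changed in small numbers. Over Control, 1 of the 77 other mitosis genes rose and 1 fell in each treated group. The share of all tested genes that passed there was 17.6% for ptLNPIFN-Y and 14.1% for LNPIFN-Y. Of the 77 other mitosis genes, 0 passed in ptLNPIFN-Y or LNPIFN-Y over Model, where 7% and 5.81% of all tested genes did. In ptLNPIFN-Y over LNPIFN-Y and in Model over Control 0 of the 77 passed as well, as for all genes (0%). Hjurp, the chaperone that loads Cenpa, fell in ptLNPIFN-Y over Control at -0.87 ± 0.21 (adjusted p = 0.0105), a call that held with each library left out in turn. Hjurp also fell in LNPIFN-Y over Control at -0.73 ± 0.21 (adjusted p = 0.0306), a call lost without 4 of the 10 libraries in turn, with adjusted p from 0.0587 to 0.0867. Hjurp had 337, 272, 354, 228 and 187 CPM in ptLNPIFN-Y, 195, 306, 390, 343 and 281 in LNPIFN-Y, 333, 458, 307, 513 and 492 in Model, and 556, 638, 487, 473 and 356 in Control. With the granulosa and oocyte list means as covariates the Hjurp fold change was -0.58 in ptLNPIFN-Y (edgeR adjusted p = 0.0883) and -0.36 in LNPIFN-Y (adjusted p = 0.498). Iqgap3 rose in LNPIFN-Y over Control (1.16 ± 0.38, edgeR adjusted p = 0.0494), with 0.80 and 0.17 without LNPIFN-Y 5. Zwint, a kinetochore gene, rose in ptLNPIFN-Y over Control (0.33 ± 0.1, edgeR adjusted p = 0.0294), with 0.17 and 0.212 with library size as the only scaling. The Iqgap3 and Zwint calls were lost without 7 and 5 of the 10 libraries in turn. Where none passed, the smallest p-values belonged to Hjurp in ptLNPIFN-Y over Model, Pkmyt1 in LNPIFN-Y over Model, Spc24 in ptLNPIFN-Y over LNPIFN-Y, and Iqgap3 in Model over Control, with edgeR adjusted p of 0.0997, 0.131, 1 and 0.936.

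The 52 DNA replication genes, whose products act in S phase, stood on the other side of 0 from the mitosis genes in ptLNPIFN-Y over Model, with a median of 0.11 and 40 of 52 above 0. In LNPIFN-Y over Model the median was 0.31 against -0.03 over all tested genes, with 51 of 52 above 0. Of the 52 genes, 0 passed, where 5.81% of all tested genes did, and 18 had an unadjusted edgeR p under 0.05. The smallest edgeR adjusted p there was 0.0592, for Ccne1. LNPIFN-Y 5 had the highest mean centred log2 CPM of this list, 0.55, and the list was not rerun without it. In ptLNPIFN-Y over LNPIFN-Y the replication genes lay on the same side as the mitosis genes, with a median of -0.19 and 50 of 52 below 0. Ccne1, the cyclin that starts S phase, rose in ptLNPIFN-Y over Model at 0.88 ± 0.2 (adjusted p = 0.00741), the only call of this list against Model. Ccne1 had 6.15, 6.83, 6.33, 8.98 and 6.5 CPM in ptLNPIFN-Y, 6.09, 5.59, 5.52, 4.99 and 7.54 in LNPIFN-Y, 4.04, 4.24, 4.19, 3.81 and 2.55 in Model, and 5.61, 3.77, 3.57, 4.09 and 6.14 in Control. All 5 ptLNPIFN-Y values of Ccne1 lay above all 5 Model values, and the call held with each library left out in turn. For ptLNPIFN-Y over Model, 7% of all tested genes passed and 6.07% had groups without overlap. Against Control, Ccne1 (0.59 ± 0.2), Pcna (0.5 ± 0.16) and Rrm1 (1.35 ± 0.43) rose in ptLNPIFN-Y, and Pcna (0.57 ± 0.16), Rrm1 (1.39 ± 0.43) and Tk1 (1.16 ± 0.36) rose in LNPIFN-Y, with edgeR adjusted p from 0.0272 to 0.048. Each of these 6 calls was lost without 4 or more of the 10 libraries in turn, with adjusted p up to 0.143. Against Control 3 of 52 genes passed in each treated group, where 17.6% of all tested genes did for ptLNPIFN-Y and 14.1% for LNPIFN-Y. Rrm1 in Model over Control and Tyms in ptLNPIFN-Y over LNPIFN-Y had the smallest p-values where none passed (edgeR adjusted p of 0.936 and 1).

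Of 22 regulators of mitotic genes, Rbl1 had the smallest p-values over Control and over Model in both treated groups. In ptLNPIFN-Y over Control 2 of the 22 rose and 2 fell, where 17.6% of all tested genes passed. In LNPIFN-Y over Control 2 rose and 1 fell, where 14.1% passed. Over Model 1 rose in each treated group, where 7% passed for ptLNPIFN-Y and 5.81% for LNPIFN-Y. Rbl1 encodes p107, a pocket protein of the DREAM complex. Rbl1 had 43.1, 66.2, 70.7, 75.2 and 58 CPM in ptLNPIFN-Y, 74.1, 53, 54.9, 59.9 and 59.7 in LNPIFN-Y, 35.7, 53.5, 49.2, 34.2 and 31.6 in Model, and 39.2, 34.6, 36.6, 36.2 and 30.4 in Control. Of the 5 ptLNPIFN-Y values, 4 lay above every Model value, and all 5 ptLNPIFN-Y and all 5 LNPIFN-Y values lay above every Control value. Groups without overlap with Control were found for 16.7% of all tested genes in ptLNPIFN-Y and 19.5% in LNPIFN-Y. Rbl1 rose in ptLNPIFN-Y over Control at 0.82 ± 0.16 (edgeR adjusted p = 0.00162) and in LNPIFN-Y over Control at 0.77 ± 0.16 (adjusted p = 0.00322). Over Model it rose in ptLNPIFN-Y at 0.62 ± 0.16 (adjusted p = 0.0218) and in LNPIFN-Y at 0.56 ± 0.16 (adjusted p = 0.0436). Both calls over Control held with each library left out in turn, although the adjusted p of Rbl1 in LNPIFN-Y was 0.0832 with granulosa and oocyte covariates. Those over Model were lost without 5 and 8 of the 10 libraries, with adjusted p up to 0.0809 and 0.155. In ptLNPIFN-Y over Control, E2f5 fell (-0.81 ± 0.2, adjusted p = 0.0101), as did Nfyc, a subunit of NF-Y (-0.36 ± 0.1, adjusted p = 0.0207), and E2f1 rose (0.93 ± 0.31, adjusted p = 0.0485). In LNPIFN-Y over Control, Nfyc fell (-0.34 ± 0.1, adjusted p = 0.0323) and E2f8 rose (0.91 ± 0.29, adjusted p = 0.0413). Only the E2f5 call among these 5 held with each library left out, and its adjusted p was 0.0552 with the covariates. Where no regulator passed, the smallest p-values were those of Nfyc in Model over Control and E2f8 in ptLNPIFN-Y over LNPIFN-Y (edgeR adjusted p of 0.936 and 1).

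Among 21 cell cycle inhibitors, the stress gene Gadd45b was higher against Control and its relative Gadd45a lower against Model. Of the 21, 4 rose in ptLNPIFN-Y over Control and 3 in LNPIFN-Y over Control, where 17.6% and 14.1% of all tested genes passed. Over Model 1 rose and 1 fell in each treated group, where 7% passed for ptLNPIFN-Y and 5.81% for LNPIFN-Y. Gadd45b rose in ptLNPIFN-Y over Control at 1.35 ± 0.26 (adjusted p = 0.00151) and in LNPIFN-Y over Control at 1.1 ± 0.26 (adjusted p = 0.00836), and both calls held with each library left out. With granulosa and oocyte covariates the adjusted p in LNPIFN-Y was 0.134. Gadd45b had 28.3, 35.3, 41.1, 54.4 and 33.4 CPM in ptLNPIFN-Y, 36.8, 34.8, 26.4, 25.9 and 38.3 in LNPIFN-Y, 24.4, 14.2, 39.8, 23.2 and 14.5 in Model, and 14.6, 12.5, 12.3, 14.6 and 21.6 in Control. All 10 values of the treated groups lay above all 5 Control values. Of all tested genes, 16.7% had no overlap with Control in ptLNPIFN-Y and 19.5% in LNPIFN-Y. Gadd45a fell in ptLNPIFN-Y over Model at -0.82 ± 0.23 (edgeR adjusted p = 0.0318) and in LNPIFN-Y over Model at -0.88 ± 0.23 (adjusted p = 0.0223). These calls were lost without 7 and 5 of the 10 libraries in turn. Without Model 2, its highest library, the adjusted p were 0.103 and 0.0818. The antiproliferative gene Btg1 rose in ptLNPIFN-Y over Model (0.7 ± 0.17, adjusted p = 0.0128) and in LNPIFN-Y over Model (0.62 ± 0.17, adjusted p = 0.0321), and it also rose against Control in ptLNPIFN-Y (0.59 ± 0.17) and in LNPIFN-Y (0.51 ± 0.17). The Btg1 call in ptLNPIFN-Y over Model was lost without ptLNPIFN-Y 5 alone (adjusted p = 0.0645), and the others were lost without 7 of the 10 libraries in turn in LNPIFN-Y over Model, 4 in ptLNPIFN-Y over Control and 8 in LNPIFN-Y over Control. Btg2 rose in ptLNPIFN-Y over Control (0.82 ± 0.21, adjusted p = 0.0124; 0.0516 with the covariates), and it had the smallest p of the list in Model over Control and in ptLNPIFN-Y over LNPIFN-Y, without passing (edgeR adjusted p of 0.841 and 1). Cdkn1a rose in ptLNPIFN-Y over Control (0.53 ± 0.18, adjusted p = 0.0495) and in LNPIFN-Y over Control (0.57 ± 0.18, adjusted p = 0.0402), and these calls were lost without 9 and 8 of the 10 libraries, with adjusted p up to 0.123 and 0.128. Of all 31 calls in the 4 lists, 8 held with each library left out in turn and 18 were lost without the 2 libraries that lack Zp3. With granulosa and oocyte covariates 26 were lost, and 3 held under every alternative run: Gadd45b and Rbl1 in ptLNPIFN-Y over Control and Ccne1 in ptLNPIFN-Y over Model. Over Control, 14 of 14 T cell markers, 10 of 10 NK and cytotoxic markers and 8 of 12 macrophage markers were past the test and higher in ptLNPIFN-Y, and the same numbers in LNPIFN-Y. Over Model, 5 of 12 macrophage markers were higher in ptLNPIFN-Y and 7 in LNPIFN-Y. Of 12 B and plasma cell markers, 11 were higher in ptLNPIFN-Y and 5 in LNPIFN-Y over Control, and 6 in ptLNPIFN-Y and 0 in LNPIFN-Y over Model. The part of these markers in the changes was not tested.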

How the data were processed

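Bulk RNA of 20 mouse ovary libraries was measured as RSEM expected counts per gene, deposited by the authors in 1 table. Per the submitters' processing notes the tools named are HISAT2, StringTie, RSEM and DESeq2 with GRCm38.p6, without versions. RSEM divides reads that match several near-identical copies, and 9.85% of values had decimals, so these are estimated counts, rounded here to whole numbers. As deposited, 26 symbols read as dates and were looked up by gene ID, and 1 emptied row was not used. Genes were filtered with filterByExpr (minimum count 10), which left 15723 of 20960 genes, scaled by TMM, and tested with edgeR 4.0.16 (R 4.3.3) by the quasi-likelihood test in 1 model over 4 groups, with 6 contrasts and Benjamini-Hochberg adjustment over all tested genes. Log2 CPM used a prior count of 2. Libraries held 16496792 to 17218033 counts, and the scripts were tested on simulated data. Alternatives were other scalings, DESeq2 1.42.0, sample quality weights (limma 3.58.1), no filter, 2 groups alone, a replicate block, granulosa and oocyte covariates, and left-out libraries.

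The 38 genes, the pathway lists and the marker lists were chosen with earlier results of these data known. Genes named with values per library were 22 chosen by role, the 2 with the smallest p in each contrast, those with the widest and narrowest spread, Foxm1, Mybl2 and Cdkn1a, the called genes of each pathway list or otherwise its gene with the smallest p, and the 10 genes most like the mean of the set, of which 1 is not reported here. Racgap1, Hmmr and the split of 8 genes by their departures were named after their values were seen. None of the 40 pairs of libraries within a group agreed within sampling noise.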

Additional observations from a re-analysis of the deposited data

Results flagged for a closer look

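Within groups of 5, the gap of the lowest or highest library to its neighbour was taken as a share of the group's range of log2 CPM, and 26 of 168 such tests passed the 95% critical value of Dixon's test, where chance gives about 1 in 20. These tests are not independent, since the 38 genes vary together. The mean of the 38 genes set ptLNPIFN-Y 5 apart below its group with a share of 0.824. The same library lay apart for Kif23 (0.908), Ube2c (0.834), Ndc80 (0.819), Ccna2 (0.811), Aurkb (0.804), Mybl2 (0.794), Dlgap5 (0.781), Plk1 (0.762), Cdk1 (0.755), Cdc20 (0.746), Cenpe (0.746), Ect2 (0.74), Ccnb2 (0.719), Sgo1 (0.716) and Top2a (0.712).

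LNPIFN-Y 5 lay apart above its group for Racgap1 (0.903), Kif20b (0.796), Foxm1 (0.737), Kif11 (0.73), Ect2 (0.728), Smc4 (0.722), Hmmr (0.721) and Prc1 (0.717). LNPIFN-Y 1 lay apart below its group for Ttk (0.763), and Model 1 above its group for Bub1 (0.735). The 2 libraries without a Zp3 count, ptLNPIFN-Y 5 and LNPIFN-Y 5, thus account for 24 of the 26, on opposite sides of their groups.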

How the results depend on the processing

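In Model over Control, LNPIFN-Y over Model, ptLNPIFN-Y over Model, ptLNPIFN-Y over LNPIFN-Y and LNPIFN-Y over Control, 0 of the 38 genes passed under every alternative run. In ptLNPIFN-Y over Control, where 0 passed, the count was 1 with RLE size factors, 1 with upper-quartile scaling, 1 with DESeq2, 1 with the 2 groups compared alone, 2 with library size alone and 4 with sample quality weights, and 0 to 2 with 1 library left out. Kif2c was among them in each case, always lower in ptLNPIFN-Y, and the cause of the differences was not tested.

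With library size alone the median of all genes shifted to -0.18 in ptLNPIFN-Y over Model and -0.13 in LNPIFN-Y over Model, and that of the 38 genes to -0.37 and 0.01. Medians with 1 library left out ran from -0.34 to -0.14 in ptLNPIFN-Y over Model, -0.10 to 0.25 in LNPIFN-Y over Model, -0.48 to -0.14 in ptLNPIFN-Y over LNPIFN-Y, -0.05 to 0.19 in Model over Control, -0.04 to 0.35 in LNPIFN-Y over Control and -0.29 to -0.07 in ptLNPIFN-Y over Control. Sample quality weights gave -0.24 in Model over Control and -0.08 in LNPIFN-Y over Control, the opposite sign, and moved the median to -0.07 in ptLNPIFN-Y over Model (24 of 38 below 0) and to -0.20 in ptLNPIFN-Y over LNPIFN-Y. Granulosa and oocyte covariates moved it to 0.02 in LNPIFN-Y over Model, 0.03 in Model over Control and 0.05 in LNPIFN-Y over Control. With the same covariates the median stayed below 0 in the ptLNPIFN-Y comparisons. It was -0.3 over Model, -0.33 over LNPIFN-Y and -0.26 over Control. Replicate numbers did not pair the libraries (correlations of same-numbered deviations from -0.70 to 0.76, with 0 to 2 of 5 best with their own number), and with the number as a replicate block 0 of the 38 genes passed in all 6 comparisons and 15 of the 31 pathway calls were lost. Depth was alike in all libraries, and counting error was not separated from the spread between them.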

Other observations

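Ratios of partner genes within a library cancel the shared level of the set. They are ratios of CPM per kilobase of the deposited gene length, given as values without a test. Aurka per Tpx2, the kinase over its activator, averaged 0.617 ± 0.128 in ptLNPIFN-Y, 0.682 ± 0.102 in LNPIFN-Y, 0.754 ± 0.0946 in Model and 0.931 ± 0.0608 in Control (SD, n = 5 each). Control libraries lay between 0.85 and 1.01, above all other 15 libraries, whose highest ratio was 0.832 in Model 4. In every other pair given here Control overlapped the other groups. How often ratios of any genes set Control apart was not computed. Ccnb1 per Cdk1, cyclin B1 over its kinase, averaged 1.34 ± 0.192 in ptLNPIFN-Y, 1.41 ± 0.2 in LNPIFN-Y, 1.6 ± 0.307 in Model and 1.68 ± 0.0692 in Control, and the groups overlapped.

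Pairs of a shared complex gave these values. Ndc80 per Nuf2, of the same kinetochore complex, was 0.802 ± 0.0935 over the 20 libraries, and Aurkb per Birc5, of the passenger complex, 1.28 ± 0.154. Smc4 per Ncapg, of condensin, ranged from 1.64 in Control 1 to 3.44 in LNPIFN-Y 1. Kif23 per Racgap1, the partners in centralspindlin, ranged from 0.312 in LNPIFN-Y 5 to 0.69 in Model 4.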
